A study of Mus musculus with 10 samples.

Results

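The 8 genes described here encode proteins that set how long cytokine mRNAs last in the cell. They were taken by gene symbol from a fixed list, and all 8 were found among the 13091 genes that each of the 4 deposited tables lists. The tables come from mouse neutrophils differentiated in culture from HoxB8-immortalized bone marrow progenitors of the 129-SVEV strain, which the study expanded from single clones. The labels give 2 *Vim*+/+ and 3 *Vim*-/- replicates in each treatment, unstimulated or 1 hour with LPS at 25 ng/mL, so 10 libraries fell into 4 groups. They do not say whether a replicate is a separate clone or whether the same replicate number marks the same clone in both treatments. The labels call the *Vim*-/- cells a knockdown, whereas the study derived them from knockout mice, and all lines carry the estrogen-dependent HoxB8 that was switched off before differentiation.

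Many inflammatory mRNAs carry AU-rich elements or small stem-loops in the 3′ UTR, the part of the transcript after the stop codon. Tristetraprolin and its relatives bind AU-rich elements and recruit the CCR4-NOT complex, which removes the poly(A) tail, after which the mRNA is decapped and degraded. Regnase-1 is an endonuclease and the roquins are adaptor proteins, and both recognize stem-loops, whereas HuR binds AU- and U-rich stretches and usually protects the transcript. In myeloid cells tristetraprolin is known for limiting *Tnf* mRNA and regnase-1 for limiting *Il6* mRNA after exposure to bacterial products.

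The level given for each gene is the mean normalized count over libraries that the authors deposited, and it was identical in the 4 tables for all 13091 genes. It carries no standard deviation, and it mixes both genotypes and both treatments, so no level per group, no spread between libraries and no test of a difference can be given from it. The depth of each library is unknown. The remaining columns of the tables are the authors' own comparisons and were not used, so the effects of LPS and of vimentin on these genes are not analysed here. For the same reason *Vim* itself could not be checked library by library. To compare genes, the mean was divided by the length in kilobases of the longest mRNA of the gene, a complete one where available. The annotation was GENCODE M21, for mouse on GRCm38, which is equivalent to mm10. A length was found for 12046 genes (92.0%), whose median was 335 normalized counts per kilobase.

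The sequences below are shown because 6 of the 8 regulators hold the nonamer TTATTTATT, the preferred binding sequence of tristetraprolin and its relatives, in their own 3′ UTR. Each covers the first occurrence in the 3′ UTR of the longest mRNA and its flanking bases, 5′ to 3′ on the strand of the gene, with every nonamer that lies whole within the printed bases in capitals. The coordinates are on GRCm38, and *Tnf*, the best known target of tristetraprolin, is shown for comparison.
Zfp36, minus strand, chr7:28376953-28376977: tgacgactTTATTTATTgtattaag
Zfp36l1, minus strand, chr12:80108169-80108193: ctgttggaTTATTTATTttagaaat
Zfp36l2, minus strand, chr17:84184916-84184940: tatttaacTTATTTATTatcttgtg
Rc3h1, plus strand, chr1:160970045-160970069: tttactcaTTATTTATTgagatgag
Rc3h2, minus strand, chr2:37373289-37373313: aagacattTTATTTATTttactctg
Elavl1, minus strand, chr8:4285785-4285814: catgaaaaTTATTTATTTATTTATTTATTt
Tnf, minus strand, chr17:35199686-35199715: tgcacttaTTATTTATTATTTATTTATTat
In *Elavl1* and *Tnf* the capitals cover several overlapping nonamers. The printed stretch was limited to 30 bases, and further nonamers of both genes lie beyond its end or run across it.

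The Zfp36 family proteins bind AU-rich elements through a pair of CCCH zinc fingers. *Zfp36*, on chromosome 7 from 28376784 to 28380253, encodes tristetraprolin and had a mean normalized count of 11303, or 4051 per kilobase of its 2790-base mRNA. *Zfp36l2*, on chromosome 17 from 84183931 to 84187947, had 12266 normalized counts and 3475 per kilobase of a 3530-base mRNA. *Zfp36l1*, on chromosome 12 from 80107754 to 80113013, had 9265 normalized counts and 3099 per kilobase of a 2990-base mRNA. All these genes of the family therefore stood at the border of the highest 10% of genes, at the 91.9th percentile for *Zfp36*, the 90.5th for *Zfp36l2* and the 89.4th for *Zfp36l1*, per kilobase. The family made up 64.8% of the summed level per kilobase of the 8 regulators, and 60.0% of their summed mean as deposited. The remaining family gene, *Zfp36l3*, was not among the genes the tables list.

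*Zc3h12a*, on chromosome 4 from 125118423 to 125127840, encodes regnase-1, the endonuclease that cuts stem-loop mRNAs such as *Il6*. It had a mean normalized count of 9613, or 3489 per kilobase of a 2755-base mRNA, at the 90.5th percentile. *Zfp36* was 1.16 times *Zc3h12a* per kilobase and *Zfp36l2* almost level with it, and whether these neighbours differ cannot be told without the spread between libraries. Of its paralogs, *Zc3h12c* had 124 and *Zc3h12d* 39.1 normalized counts per kilobase, and *Zc3h12b* was not among the genes listed.

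The roquins are RING and CCCH proteins that bind stem-loops and recruit the deadenylase. *Rc3h1*, on chromosome 1 from 160906418 to 160974978, encodes roquin-1 and had a mean normalized count of 2271. *Rc3h2*, on chromosome 2 from 37370069 to 37422903, encodes roquin-2 and had a mean normalized count of 1413. Their mRNAs are the longest of the set, with 11006 and 8948 bases, so that per kilobase they stood at 206 and 158 normalized counts, at the 40.2nd and 35.5th percentiles. They were the lowest of the regulators and the only ones below the median of all genes on this scale. As deposited, before division by length, both lay above the median of all genes, at the 69.1st and 58.8th percentiles of all 13091 genes. *Zfp36* was 19.6 times *Rc3h1* and 25.6 times *Rc3h2* per kilobase with the longest mRNA. With the 3 other definitions of length tried, the shortest mRNA, the median over mRNAs and the coding length, the ratio to *Rc3h1* fell as low as 7.02 and the ratio to *Rc3h2* lay between 18.9 and 29.7.

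*Elavl1* and *Khsrp* encode proteins with opposite roles on AU-rich mRNAs. *Khsrp*, on chromosome 17 from 57021051 to 57031522, encodes KSRP, a KH-domain protein that promotes decay, and had a mean normalized count of 5556, or 1397 per kilobase, at the 78.9th percentile. *Elavl1*, on chromosome 8 from 4285382 to 4325413, encodes HuR, the stabilizing protein, and had a mean normalized count of 2994, or 521 per kilobase, at the 59.5th percentile. *Khsrp* was thus 2.68 times *Elavl1* per kilobase of the longest mRNA, but 0.810 times with the coding length, so the order of this pair depended on which length was used. Of the neuronal relatives of HuR, *Elavl3* and *Elavl4* were not among the genes listed and *Elavl2* had 210 normalized counts per kilobase. The KSRP relatives *Fubp1* and *Fubp3* had 364 and 231 normalized counts per kilobase, each below *Khsrp*.

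**Figure D1:**
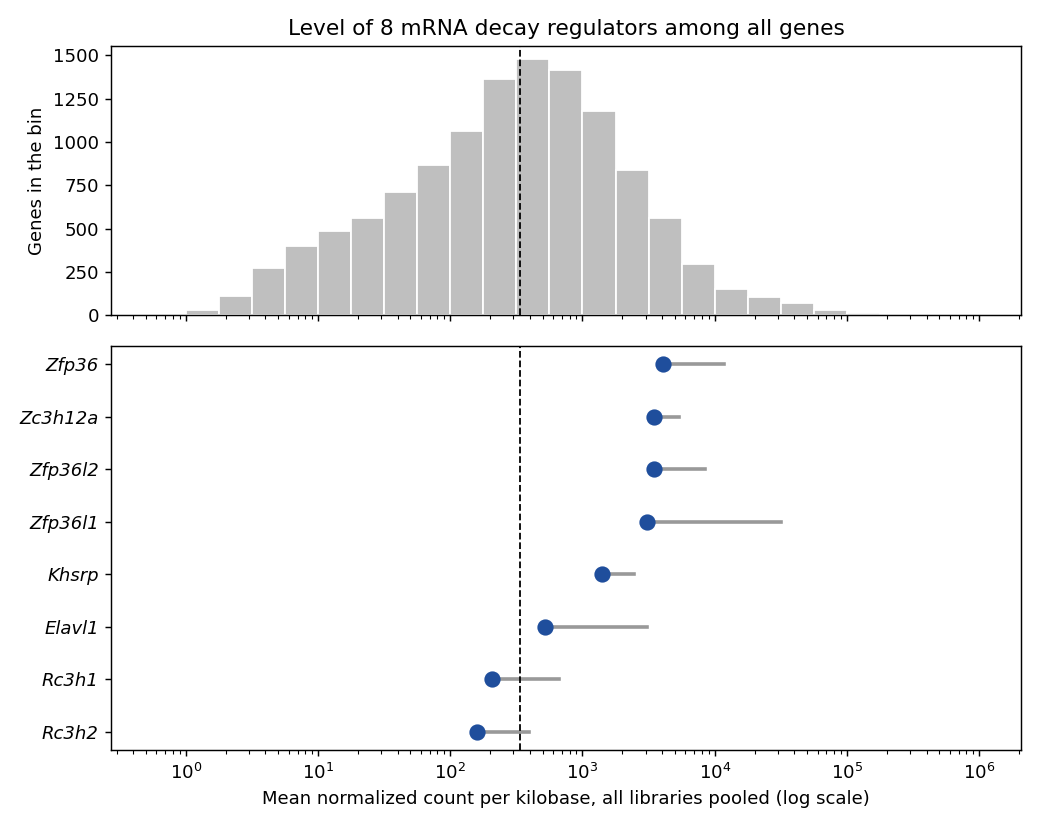
The upper panel counts the genes with a length by mean normalized count per kilobase (log axis), except *S100a8* and *S100a9*, which exceed its last bin. The lower panel places the 8 regulators on the same axis, with a point for the longest mRNA and a grey line over the 4 definitions of length. The dashed line is the median of all genes, 335, and *Rc3h1* and *Rc3h2* are the regulators whose points lie to its left, while the Zfp36 family and *Zc3h12a* lie between 3099 and 4051.

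The order from *Zfp36* down through *Zc3h12a*, *Zfp36l2*, *Zfp36l1*, *Khsrp*, *Elavl1* and *Rc3h1* to *Rc3h2* kept its direction in 23 of the 28 pairs of regulators under all 4 definitions of length. The 5 pairs that turned were *Khsrp* with *Elavl1*, *Zc3h12a* with *Zfp36l2*, and *Zfp36l1* with each of *Zfp36*, *Zfp36l2* and *Zc3h12a*. *Zfp36l1* moved most, from 3099 normalized counts per kilobase with the longest mRNA to 31728 with the shortest, which is 292 bases long and holds little of the gene. The separation of the Zfp36 family and *Zc3h12a* from *Khsrp*, *Elavl1* and the roquins was kept in all 16 pairs across that line under the 4 definitions.

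Reads from some of these genes could have been shared with others, which bears on the levels. In *Zfp36l1*, 53.6% of the 50-base windows of the longest mRNA were also found, on the opposite strand, in the antisense gene *Gm26669*, and 3.26% in the pseudogene *Zfp36l1-ps*. Neither gene is among those listed, and since the sources used here do not say whether counting used strand, sense and antisense reads of *Zfp36l1* cannot be told apart. In *Elavl1*, 2.72% of windows were shared with *Ccl25*, a chemokine gene on the opposite strand whose mean normalized count was 205. For the other regulators the share of such windows ran from 0 in *Rc3h1* to 2.52% in *Zfp36*, where they were spread over 114 other genes.

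The motifs that the Zfp36 family reads were counted in the 3′ UTR of each longest mRNA, as the pentamer ATTTA and as the nonamer, which contains it, on the transcribed strand and with overlapping matches counted. All 8 regulators held at least 1 pentamer, against 68.4% of the 11107 genes with a complete 3′ UTR and 90.4% of the 5871 genes whose 3′ UTR has at least 1000 bases. The nonamer was in 6 of the 8 (75.0%), against 7.91% of all genes and 12.2% of those with a 3′ UTR of at least 1000 bases. Neither comparison was matched gene by gene for the length of the 3′ UTR. The 3′ UTRs of the regulators had a median of 1829 bases against 1089 for all genes, with those of *Zfp36* at 774 and *Zc3h12a* at 856 bases below the latter and the other 6 above it. Per kilobase the median of the regulators was 3.69 pentamers against 1.26. These genes were listed with their biology known, so the counts are a description and were not tested.

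*Elavl1* had the most nonamers of the regulators, 8 within 55 bases, some of them overlapping, that began at base 3794 of its 4218-base 3′ UTR. *Tnf* had 5 nonamers within 31 bases beginning at base 438 of 764. Each of *Zfp36*, *Zfp36l1*, *Zfp36l2*, *Rc3h1* and *Rc3h2* had 1 nonamer, which began at base 589 of 774 in *Zfp36*, 1404 of 1835 in *Zfp36l1* and 821 of 1822 in *Zfp36l2*. In the roquin genes it began at base 2256 of 7181 in *Rc3h1* and 2095 of 5331 in *Rc3h2*, among 20 and 25 pentamers. *Zc3h12a* held 3 pentamers and *Khsrp* held 1, without a nonamer in either, which says only that these letters are not in these windows. A match is a stretch of letters and does not show that a protein binds there in neutrophils.

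**Figure D2:**
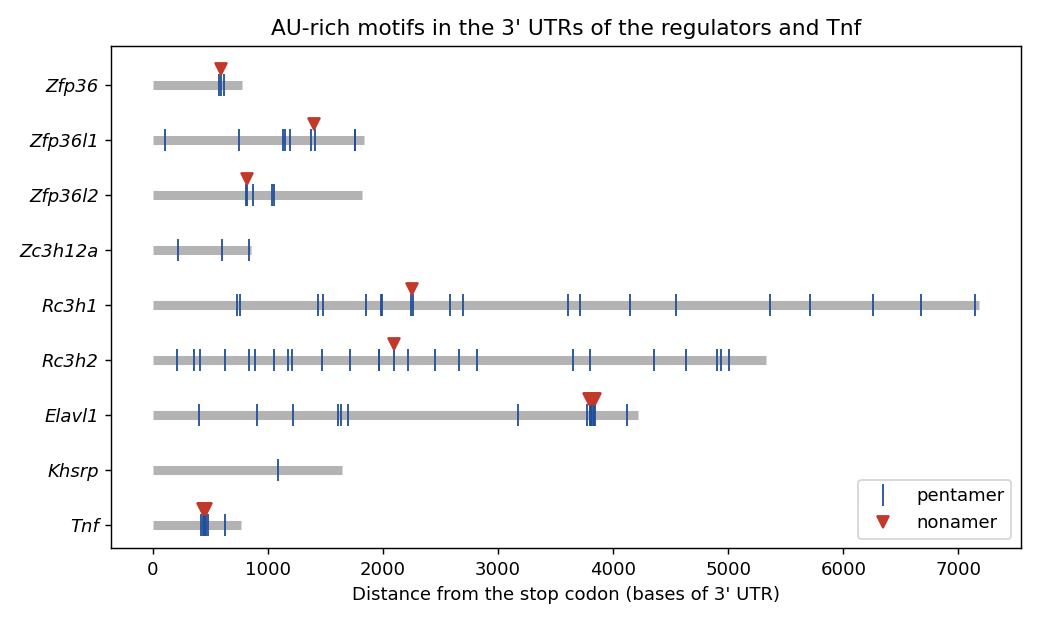
Each grey bar is the 3′ UTR of the longest mRNA of a regulator or of *Tnf*, drawn to scale in bases from the stop codon, with blue ticks for pentamers and red triangles for nonamers. The 8 nonamers of *Elavl1* crowd near the end of its 3′ UTR, and *Zc3h12a* and *Khsrp* carry no triangle.

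The mRNA decay machinery, parts of which some of the regulators recruit, was measured throughout. All 14 deadenylation genes were listed, with a median of 682 normalized counts per kilobase (65.2nd percentile) and 11 above the median of all genes. The highest were *Cnot3* at 1626 and *Cnot8* at 1458, a structural and a catalytic subunit of CCR4-NOT, and the lowest were *Pan2* at 248 and *Parn* at 191, which belong to other deadenylases. All 15 decapping genes were listed, from *Lsm4* at 3212 and *Ddx6* at 2294, the RNA helicase that links deadenylation to decapping, down to the exonuclease gene *Xrn1* at 115 and *Dcp1b* at 53.6, with a median of 455 normalized counts per kilobase and 10 of 15 above the median of all genes. All 14 genes of the exosome and SKI complexes were listed, from *Skiv2l* at 1533 and *Exosc5* at 1161 to *Dis3* at 150 and *Ttc37* at 47.6, with a median of 543 and 9 of 14 above the median of all genes. The regulators themselves had a median of 2248 normalized counts per kilobase, with 6 of 8 above the median of all genes.

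A mixed list of other RNA-binding and decay proteins was measured too, not all of which act on AU-rich elements or stem-loops. The 8 genes reported had a median of 1020.1 normalized counts per kilobase, with *Hnrnpa1* at 5558 and *N4bp1* at 2554 as the highest and *Tial1* at 440 and *Tia1* at 200 as the lowest. N4bp1 is an RNase-like protein, and Tia1 and its relative Tial1 are translational silencers of AU-rich mRNAs. *Arid5a*, whose product protects *Il6* mRNA from regnase-1, had 887.

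The 7 signalling genes that act on the regulators, directly or upstream, had a median of 1790 normalized counts per kilobase, with 6 of 7 above the median of all genes. *Mapkapk2*, the kinase that phosphorylates tristetraprolin and weakens its recruitment of the deadenylase, had 14531 normalized counts per kilobase, 3.59 times the level of *Zfp36*. *Mapk14*, which encodes the p38α kinase upstream of it, had 3987. The lowest were *Ikbkb* at 649, which encodes a kinase that marks regnase-1 for degradation, and *Malt1* at 313, below the median of all genes, the protease that cleaves regnase-1 and the roquins.

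Of the transcripts long known as targets, 11 of 15 were listed, with a median of 5347 normalized counts per kilobase, and *Cxcl1*, *Il10*, *Csf2* and *Icos* were not among the genes listed. *Ccl3* at 29390 and *Il1b* at 18047 were the highest, and *Ptgs2* at 192 and *Il6* at 178 the lowest. *Tnf* had 17796 normalized counts per kilobase, 4.39 times the level of *Zfp36*. All 11 held the pentamer and 4 (36.4%) the nonamer, and their median density of 7.36 pentamers per kilobase compares with 3.69 in the regulators. Since unstimulated and LPS-treated libraries are averaged, these values do not say how much of a target was present in either state.

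**Figure D3:**
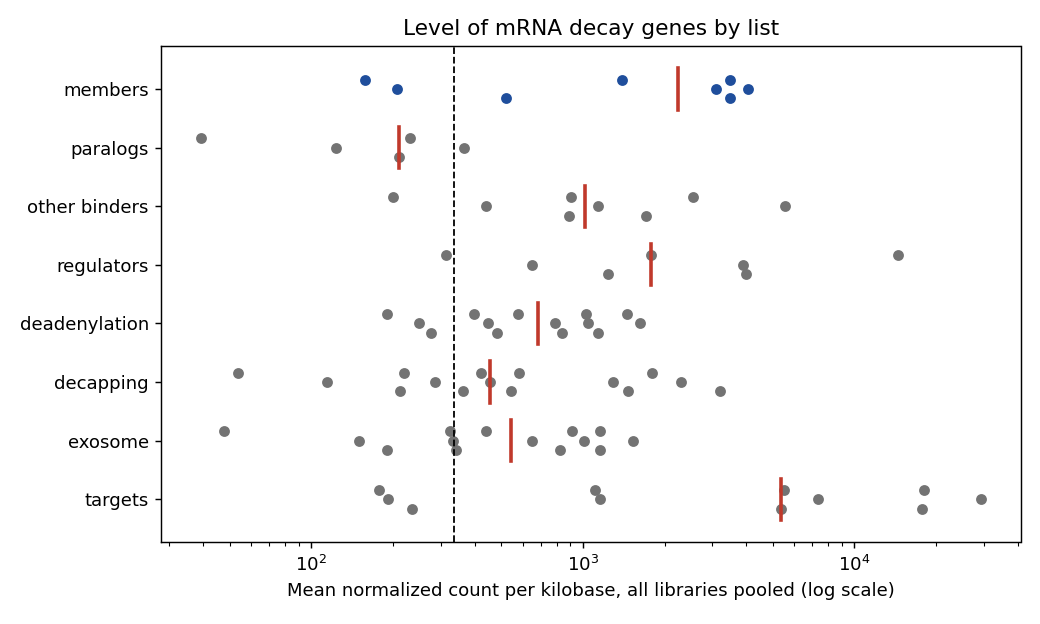
Each point is a gene, placed by its mean normalized count per kilobase (log axis), in rows for the 8 regulators (members, blue) and the other lists (grey), with a red line at the median of the list and a dashed line at the median of all genes, 335. The regulators fall into a higher group of 4 genes between 3099 and 4051 and 4 others between 158 and 1397, and the medians of the deadenylation, decapping and exosome lists lie between 455 and 682.

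The labelled cell type was checked against markers. All 11 markers of neutrophils and of their granules, some of which are transcribed mainly before full maturation, were listed, from *Cxcr2* at 11905 and *Ly6g* at 12086 to *S100a8* at 1930402 and *S100a9* at 2487149 normalized counts per kilobase, each above all 8 regulators of mRNA decay. Of 10 markers of other blood cells reported, 8 were listed and *Cd3e* and *Siglech* were not. Among these *Prg2*, an eosinophil granule gene, stood out at 320189, above 8 of the 11 neutrophil markers. It was followed by *Mcpt8*, a basophil gene, at 3352, and 5 of the 8 were above the median of all genes. These 5 include the macrophage genes *Adgre1* at 3111, close to *Zfp36l1* at 3099, and *Csf1r* at 695. The lowest were *Epor*, the erythropoietin receptor gene, at 172 and *Cd79a*, a B cell gene, at 57.5. Which cells the regulators' mRNA came from was not tested, and in bulk samples fewer cells of a type and less RNA per cell cannot be told apart.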

How the data were processed

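RNA was sequenced from 10 libraries of cultured neutrophils, and groups were taken from the labels. Per the labels and the paper's methods, the authors used Cutadapt 4.4 for trimming, STAR 2.7.10b for alignment to mm10 and counting, and DESeq2 1.26.0 for normalization and for a differential model with 4 RUVSeq covariates. The gene annotation and the strand setting of the counting are not given in the sources used here. The signal used is the deposited mean normalized count per gene. The tables also hold the authors' fold changes, standard errors, Wald statistics, p-values and adjusted p-values, which were not used. A count test was planned only for values per library, which these tables do not give.

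Calculations used Python 3.11.15, and figures matplotlib 3.10.9. Lengths, 3′ UTRs and coordinates came from the basic set of GENCODE M21 (GRCm38). For lengths, mRNAs marked incomplete were left out where the gene had a complete one. Genes without a protein-coding mRNA took the length of their other transcripts. No 3′ UTR was taken from an mRNA marked incomplete. Percentiles per kilobase are over the genes with a length of the kind used, and those of the mean as deposited over all 13091 genes. Motif counting was checked on a short made-up sequence and coordinates on made-up transcripts. Sequence shared with other genes was counted in 50-base windows on both strands. All 8 regulators were named; from the other lists, the 2 highest and 2 lowest genes per kilobase, every paralog and the genes not found. *Tnf*, *Arid5a*, *Adgre1*, *Csf1r* and the genes sharing sequence were added after values were seen. Some genes of the lists are not reported here. The regulators and lists were chosen with earlier results of these data known. Alternatives were the definition of length, the deposited mean without length, and minimum means of 10 and 100.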

Additional observations from a re-analysis of the deposited data

How the results depend on the processing

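The count of regulators above the median of all genes was 6, and ranged from 6 to 8 over the alternatives. The count in the highest 10% of genes was 3, and ranged from 1 to 4: it was 4 with the mean as deposited, 2 with the median mRNA length, 1 with the shortest mRNA and 1 when only genes with a mean of at least 100 were ranked. The mean as deposited was ranked among all 13091 genes and not only those with a length. With it, the median of the exosome list moved from the 60.5th to the 49.9th percentile. That of the other RNA-binding and decay proteins moved from the 73.2nd to the 85.1st. Of 48 recomputed percentiles of single regulators, 40 moved by less than 10 points and 8 by more, the latter in *Rc3h1*, *Rc3h2* and *Elavl1*. With the longest 3′ UTR of each gene, chosen after seeing the data, as was the coding length taken from GENCODE, the counts with a pentamer and a nonamer were 8 and 6 as before. Leaving out replicates, other normalizations and DESeq2 on counts were not run, since they need values per library. No paired analysis was possible because the columns used carry no replicate. Without values per library, the precision of every level is unknown.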
